A study of Homo sapiens with 12 samples.

Results

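The genes described here are LRRN3, PIK3CG, RASGRP3, SULF1, SLC16A4, AOAH, CYSLTR2 and GNAQ, each high in one of a pair of Hodgkin lymphoma cell lines and low in the other. They are 8 genes on 9 rows of an array table, out of 20546 rows with a gene symbol and 32321 rows in all. They were chosen because the group means of control L-428 and control L-1236 cells lay 9-fold or more apart, from a wider set of 81 such rows with 1 symbol, of which 45 were higher in L-428 and 36 in L-1236. That line difference in control cells is therefore a description and carries no test here. The question put to the data was whether EBF1 moved these genes.

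RNA was measured on 12 Affymetrix whole-transcript arrays in 4 groups of 3 independent samples: L-428 tGFP/EBF1, L-428 tGFP, L-1236 tGFP/EBF1 and L-1236 tGFP. L-428 and L-1236 are established lines from Hodgkin lymphoma, bought from the cell bank DSMZ. Every culture, controls included, was transduced, kept for 8 days and sorted for tGFP, a green fluorescent marker, so no untransduced cells were compared. The tested vector carried EBF1 behind an IRES, the labels name no promoter for it, and EBF1 was raised far above its own level in each line. The log2 signal of the EBF1 row was 12.96 ± 0.0271 in L-428 tGFP/EBF1 and 8.45 ± 0.155 in L-428 tGFP arrays, and 13.15 ± 0.107 in L-1236 tGFP/EBF1 and 7.17 ± 0.0574 in L-1236 tGFP arrays (SD, n = 3 each; the row also lists PDGFRB). Each line stands only for itself. The p-values rest on the spread between samples within groups, pooled over the 4 groups and drawn towards the spread of all rows.

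EBF1 is a transcription factor that, with others, sets up the B-cell programme. Hodgkin and Reed-Sternberg cells derive from B cells that shut most of that programme down, and the lines made from them differ widely in the other genes they express. CYSLTR2 is a receptor for cysteinyl leukotrienes, lipid mediators of inflammation, and signals through the G protein subunit encoded by GNAQ to phospholipase C beta. PIK3CG is the catalytic subunit of a phosphoinositide 3-kinase that G protein-coupled receptors switch on, and RASGRP3 loads Ras and Rap with GTP when diacylglycerol, a product of phospholipase C, is made. SLC16A4 belongs to the monocarboxylate transporter family, SULF1 removes sulfate groups from heparan sulfate outside the cell, AOAH takes fatty acyl chains off bacterial lipopolysaccharide, and LRRN3 is a leucine-rich repeat membrane protein known from neurons.

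Upstream sequences are shown for CYSLTR2, SLC16A4 and PIK3CG because these genes rose with EBF1 in L-1236. Each is the 250 bases before an annotated start, from RefSeq on GRCh38.p14, written 5′ to 3′ on the gene's strand, with every CG dinucleotide in capitals.
CYSLTR2, chr13:48653679-48653928 (+): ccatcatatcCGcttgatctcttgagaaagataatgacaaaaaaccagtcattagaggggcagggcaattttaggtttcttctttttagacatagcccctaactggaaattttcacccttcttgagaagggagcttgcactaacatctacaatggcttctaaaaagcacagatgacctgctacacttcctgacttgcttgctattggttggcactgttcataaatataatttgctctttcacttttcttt
SLC16A4, chr1:110391027-110391276 (-): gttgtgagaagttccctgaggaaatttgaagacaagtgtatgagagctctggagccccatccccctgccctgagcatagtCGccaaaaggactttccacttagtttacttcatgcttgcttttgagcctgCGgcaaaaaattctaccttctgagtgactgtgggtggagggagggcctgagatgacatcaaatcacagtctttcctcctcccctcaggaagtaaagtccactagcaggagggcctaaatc
PIK3CG, chr7:106865229-106865478 (+): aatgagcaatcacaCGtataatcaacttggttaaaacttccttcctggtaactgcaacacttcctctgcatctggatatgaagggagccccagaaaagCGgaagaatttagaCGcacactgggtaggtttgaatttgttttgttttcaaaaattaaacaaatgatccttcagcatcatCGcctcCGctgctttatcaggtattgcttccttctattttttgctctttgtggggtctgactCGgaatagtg
RefSeq promoters of 6 of the 8 genes were searched, 9 promoters in all, since RASGRP3 has several starts. GNAQ had no promoter entry, and SULF1 was left out of the search. The counts over the 9 promoters therefore say nothing of SULF1 or GNAQ. The core of the EBF1 palindrome, searched as CCCNNGGG, reads the same on both strands. It was found in 1 of the 9, a promoter of RASGRP3, against 17.1% of 35116 promoters of the same length. The longer form, which contains the core and adds T before and A after it, was found in 0 of the 9, against 1.06% of all. The 9 promoters held 1 to 8 CG dinucleotides, all below the median of 11 over all promoters, and the lower quartile over all was 3. These letters in this window are a description of sequence and not of binding.

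Rows of different genes cannot be set against each other for abundance on this array, because each row has its own probes. As a rough guide to a low signal, 20 tissue-restricted genes that lymphoid cells are not known for had group means of log2 signal between 5.49 and 7.54. In the line where they were high, the members read between 9.27 and 12.22 on single L-428 arrays (3 rows) and between 9.34 and 12.33 on single L-1236 arrays (6 rows). In the other line they read between 5.82 and 6.58 on single L-428 arrays and between 6.10 and 6.86 on single L-1236 arrays. Every low value thus lay within the range of the tissue-restricted genes, and no high value did. Whether the low values are RNA or background was not tested, since no detection call was used here.

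**Figure D1:**
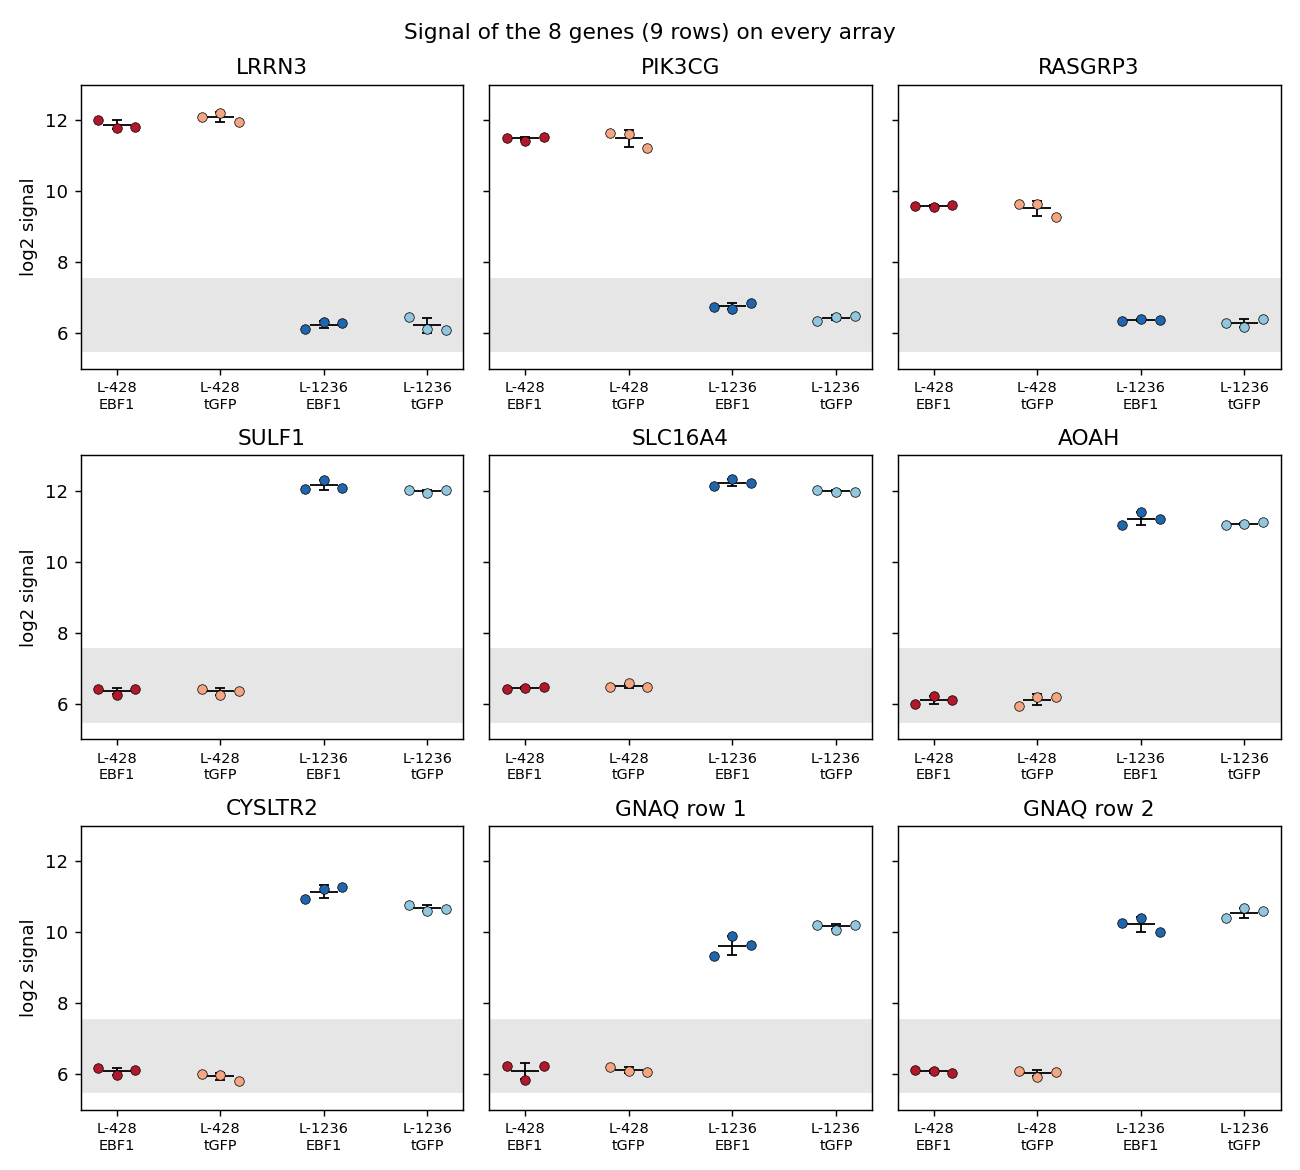
Log2 signal of the 9 rows of the 8 genes on each of the 12 arrays, with a dot per array and the mean and SD of each group of 3. The grey band spans the group means of 20 tissue-restricted genes, 5.49 to 7.54, and the low line of every gene falls inside it with or without EBF1.

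The line difference was also present in the arrays with EBF1, which the choice of genes did not use. These arrays come from the same lines, and few rows moved 2-fold with EBF1, so the choice largely fixed this outcome. The fit also takes its spread from all 12 arrays, the choosing ones included. The p-values of this comparison, here and for each gene below, are therefore no independent support for the gap. All 9 rows passed an adjusted p of 0.05 or less between L-428 tGFP/EBF1 and L-1236 tGFP/EBF1 (limma, Benjamini-Hochberg over all 20546 rows), each more than 2-fold apart and with no overlap of single arrays. The background is high, since 50.5% of all rows passed in this comparison, 7.65% also reached 2-fold, and 59.5% had no overlap of single arrays. In the EBF1 arrays, the members stood 9.23-fold (RASGRP3) to 55.6-fold (SULF1) apart. In the control arrays that chose them, they stood 9.39-fold (RASGRP3) to 58.6-fold (LRRN3) apart. The gap was smaller with EBF1 than without it for 5 of the 9 rows. On the first GNAQ row it was 11.5-fold in EBF1 arrays against 16.6-fold in control arrays, on the second 17.6-fold against 23.0-fold, and for PIK3CG 26.5-fold against 33.3-fold, with LRRN3 and RASGRP3 the others. It was larger with EBF1 for the other 4 rows, at 55.1-fold against 44.6-fold for SLC16A4 and 33.5-fold against 26.7-fold for CYSLTR2, with AOAH and SULF1 the others. Whether the gaps themselves differed is the test of the EBF1 effects between lines given for each gene. Each gene stayed on its own side of the gap with EBF1, and its change in signal came to at most 13.4% of the control gap, for the first of the 2 GNAQ rows.

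With EBF1, 0 of the 9 rows passed the adjusted p in L-428, where 4.34% of all rows passed. In L-1236, 5 of the 9 rows passed, which are 4 of the 8 genes, where 9.64% of all rows passed. Of these, CYSLTR2, PIK3CG and SLC16A4 rose (3.69% of all rows rose) and GNAQ fell on both of its rows (5.95% of all rows fell). All 9 rows are among the 13006 rows above the array median in at least 1 group. With p-values adjusted over those brighter rows alone, 7.5% of them passed in L-428 and 15.7% in L-1236. None of the 9 rows reached a 2-fold change in either line, as 0.0973% of all rows did in L-428 and 0.146% in L-1236. The median log2 change of the 9 rows was -0.0012 in L-428, beside 0.0037 over all rows, and 0.15 in L-1236, beside 0.0080 over all rows. These changes are measured against the same tGFP arrays that chose the genes. An effect past the threshold in one line alone is not a difference between lines, and the difference of the EBF1 effects itself passed for 1 of the 9 rows, SLC16A4, where 5.16% of all rows passed.

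**Figure D2:**
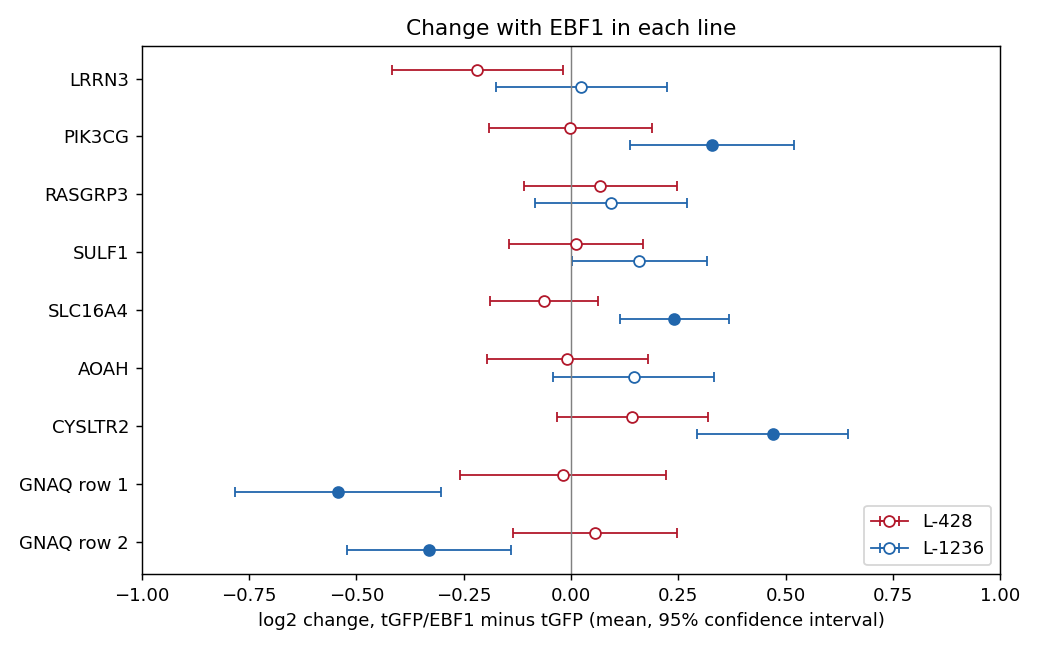
Log2 change with EBF1 (tGFP/EBF1 minus tGFP) of each row in L-428 and of the same row in L-1236, as the fitted mean with its 95% confidence interval, from 3 arrays against 3. Filled dots passed an adjusted p of 0.05 (limma), and the 5 filled dots are all of L-1236, with CYSLTR2, PIK3CG and SLC16A4 right of 0 and both GNAQ rows left of it.

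CYSLTR2 was high in L-1236 and showed the largest rise with EBF1 of the 8 genes there. Its log2 signal was 10.94, 11.23 and 11.28 in L-1236 tGFP/EBF1 arrays, against 10.76, 10.61 and 10.67 in L-1236 tGFP arrays. All 3 EBF1 arrays lay above all 3 control arrays. CYSLTR2 rose by 0.47 on the log2 scale (SE 0.0838, 95% interval 0.29 to 0.65), a 1.39-fold change (limma, adjusted p = 0.000936). That rise is 9.92% of the control gap between the lines. In L-428 the receptor's log2 signal was 6.17, 5.98 and 6.11 in tGFP/EBF1 arrays, against 6.01, 5.99 and 5.82 in tGFP arrays, and these values overlapped. The change in L-428 was 0.14 (95% interval -0.033 to 0.32, limma adjusted p = 0.518). The effects differed by -0.33 on the log2 scale, L-428 minus L-1236, without passing the test (limma, adjusted p = 0.135), although without replicate 1 of L-1236 tGFP/EBF1 the difference was -0.43 (limma, adjusted p = 0.0192). With EBF1 in both lines, CYSLTR2 was 33.5-fold higher in L-1236 than in L-428 (limma, adjusted p = 8.19e-19).

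GNAQ, the G protein subunit below that receptor, was also high in L-1236, and there it moved the other way. It has a processed pseudogene whose RNA its probes may also read. Its first row read a log2 signal of 9.34, 9.89 and 9.65 in L-1236 tGFP/EBF1 arrays, against 10.21, 10.08 and 10.22 in L-1236 tGFP arrays, with no overlap. This row fell by 0.54 (SE 0.114, 95% interval -0.78 to -0.30), or 1.46-fold (limma, adjusted p = 0.00386). The fall is 13.4% of the control gap between the lines, the largest such share among the 9 rows. Its second row read 10.25, 10.42 and 10.00 in L-1236 tGFP/EBF1 arrays, against 10.40, 10.67 and 10.59 in L-1236 tGFP arrays. Here the highest EBF1 array overlapped the lowest control array, and the row fell by 0.33 (SE 0.0908, 95% interval -0.52 to -0.14, limma adjusted p = 0.0249). That second call was lost without replicate 2 of L-1236 tGFP (-0.27, limma adjusted p = 0.141), replicate 3 of L-1236 tGFP (-0.31, adjusted p = 0.0956) or replicate 3 of L-1236 tGFP/EBF1 (-0.22, adjusted p = 0.169).

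In L-428 both GNAQ rows stayed low. The first row had a log2 signal of 6.22, 5.84 and 6.24 in tGFP/EBF1 arrays and 6.20, 6.09 and 6.06 in tGFP arrays of L-428. The second had 6.13, 6.10 and 6.04 in tGFP/EBF1 arrays and 6.10, 5.93 and 6.07 in tGFP arrays. Neither row's change passed the test there (-0.018 and 0.056, limma adjusted p = 0.984 and 0.922). The EBF1 effects, L-428 minus L-1236, differed by 0.52 on the first row and 0.39 on the second (limma, adjusted p = 0.0704 and 0.0977). Between the lines with EBF1, GNAQ was 11.5-fold higher in L-1236 by the first row and 17.6-fold by the second (limma, adjusted p = 5.39e-15 and 2.51e-17).

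Other genes of the leukotriene pathway shared the pattern of CYSLTR2 only in part. Of 12 measured genes besides CYSLTR2, 1 rose and 1 fell in L-428, and 1 rose and 1 fell in L-1236. Over all rows, 4.34% passed in L-428 and 9.64% in L-1236. CYSLTR1, the other cysteinyl leukotriene receptor, averaged a log2 signal of 9.04 ± 0.31 in L-1236 tGFP/EBF1 and 8.40 ± 0.0778 in L-1236 tGFP arrays, and rose by 0.64 there (limma, adjusted p = 0.000647). In L-428 it averaged 6.06 in tGFP/EBF1 and 6.001 in tGFP arrays, within the range of the tissue-restricted genes. In the EBF1 arrays its log2 difference, L-428 minus L-1236, was -2.98 (limma, adjusted p = 4.11e-14), the same side as CYSLTR2. PLA2G4A, the phospholipase that frees arachidonic acid, fell in both lines, by 0.31 in L-428 (limma, adjusted p = 0.011) and by 0.51 in L-1236 (adjusted p = 5.96e-05), though in L-428 the call was lost when any 1 of 4 arrays was left out. ALOX5AP, which presents arachidonic acid to the 5-lipoxygenase, rose in L-428 by 0.41 (limma, adjusted p = 0.00133). It was higher in L-428 than in L-1236, as was PLA2G4A (log2 difference 1.16 and 1.29 in the EBF1 arrays). PLA2G4A and ALOX5AP thus stood on the opposite side of the line difference from the receptors, but not all synthesis genes did. LTA4H, a further gene of the list, was also higher in L-428 (0.59, limma adjusted p = 2.54e-07). LTC4S, a synthesis gene on the same list, had no row with 1 symbol and was not measured. The 5-lipoxygenase gene ALOX5 (-0.037, adjusted p = 0.639), MGST2 (-0.045, adjusted p = 0.593) and GGT5 (-0.089, adjusted p = 0.325) did not pass between the lines in the EBF1 arrays.

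Among Gq-class subunits, phospholipases and regulators, 23 genes besides GNAQ were measured. In L-428, 1 rose and 1 fell (4.34% of all rows passed), and in L-1236, 2 rose and 3 fell (9.64% of all rows passed). RGS16, which speeds the shut-off of Gi and Gq subunits, rose in L-428 by 0.37 (limma, adjusted p = 0.00271) and fell by 0.53 in L-1236 (adjusted p = 2.91e-05). RGS1, a regulator of the same class, fell by 0.36 in L-1236 (limma, adjusted p = 0.00962). ITPR2, a calcium channel that opens on the phospholipase product, fell there by 0.28 (adjusted p = 0.0246) and failed the test when any 1 of 4 arrays was dropped. GRK2, a receptor kinase, fell in L-428 by 0.30 (limma, adjusted p = 0.0445) but no longer passed on leaving out any 1 of 9 arrays. GNA11, the closest relative of GNAQ, differed little between the lines. Its log2 signal averaged 8.56 ± 0.0139 in L-428 tGFP/EBF1 and 8.75 ± 0.0876 in L-1236 tGFP/EBF1 arrays, a difference of -0.19 (limma, adjusted p = 0.0173). GNA14, a further relative next to GNAQ on the chromosome, was low in both (log2 difference 0.032, adjusted p = 0.677). The largest line differences of the other genes on the list were RGS13 (-2.56), GNA15 (-1.52) and RGS16 (-1.36), all higher in L-1236 like GNAQ.

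PIK3CG was high in L-428, and with EBF1 it changed in the line where it was low. Its log2 signal was 11.50, 11.43 and 11.54 in L-428 tGFP/EBF1 arrays, against 11.64, 11.63 and 11.21 in L-428 tGFP arrays. The control values spread more than the EBF1 values and enclosed them, because replicate 3 of L-428 tGFP read low. The change in L-428 was -0.0012 (95% interval -0.19 to 0.19, limma adjusted p = 0.998). In L-1236 the log2 signal was 6.75, 6.68 and 6.86 in tGFP/EBF1 arrays, against 6.36, 6.45 and 6.50 in tGFP arrays, with no overlap. PIK3CG rose by 0.33 there (SE 0.0905, 95% interval 0.14 to 0.52), or 1.26-fold (limma, adjusted p = 0.0257). All 6 of these values lay within the range of the tissue-restricted genes, and the rise is 6.50% of the control gap. The call was lost without replicate 1 of L-1236 tGFP (0.29, limma adjusted p = 0.115), replicate 2 of L-1236 tGFP (0.34, adjusted p = 0.0706), replicate 1 of L-1236 tGFP/EBF1 (0.34, adjusted p = 0.0511) or replicate 3 of L-1236 tGFP/EBF1 (0.28, adjusted p = 0.13). Between the lines the EBF1 effects differed by -0.33, L-428 minus L-1236 (limma, adjusted p = 0.171), and by -0.47 without replicate 3 of L-428 tGFP (adjusted p = 0.00413). PIK3CG stood 26.5-fold higher in L-428 between the arrays with EBF1 (limma, adjusted p = 4.51e-18).

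The subunits that partner PIK3CG did not share its line difference. PIK3R5, one of its regulatory subunits, had a log2 difference of -1.53 in the EBF1 arrays, L-428 minus L-1236 (limma, adjusted p = 2.42e-14), and so was higher in the line where PIK3CG was low. PIK3R6, the other, averaged a log2 signal of 7.20 ± 0.0976 in L-1236 tGFP/EBF1 and 7.79 ± 0.0731 in L-1236 tGFP arrays and fell by 0.59 there (limma, adjusted p = 9.08e-06). In L-428 it averaged 6.74 in tGFP/EBF1 and 6.77 in tGFP arrays. The catalytic subunits PIK3CB and PIK3CD stood apart by 1.097 and -0.74 on the log2 scale in the EBF1 arrays (limma, adjusted p = 3.77e-10 and 3.66e-08), smaller gaps than the 4.73 of PIK3CG. Of 13 measured genes besides PIK3CG on the class I kinase and lipid phosphatase list, 0 rose and 2 fell in L-428 (4.34% of all rows passed). In L-1236, 1 rose and 2 fell (9.64% of all rows passed). The falls in L-428 were INPP5D (-0.33, limma adjusted p = 0.0106), a lipid phosphatase that opposes the kinases, and PREX1 (-0.29, adjusted p = 0.0156), a Rac exchange factor that reads their product. Each of these calls was lost when any 1 of 3 arrays was left out. In L-1236, AKT2, a kinase below them, rose by 0.47 (limma, adjusted p = 0.00058) and INPPL1, a relative of INPP5D, fell by 0.35 (adjusted p = 0.00432). INPP4B and INPP4A, further lipid phosphatases, were higher in L-428 (2.07 and 1.102).

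RASGRP3 was high in L-428 and passed no test of EBF1. Its log2 signal was 9.60, 9.55 and 9.62 in L-428 tGFP/EBF1 arrays, against 9.64, 9.65 and 9.27 in L-428 tGFP arrays. In L-1236 it was 6.36, 6.42 and 6.39 in tGFP/EBF1 arrays, against 6.30, 6.19 and 6.39 in tGFP arrays. Single arrays overlapped in both lines. The changes were 0.068 in L-428 (95% interval -0.11 to 0.25, limma adjusted p = 0.876) and 0.093 in L-1236 (95% interval -0.084 to 0.27, adjusted p = 0.609), and the effects differed by -0.025 (adjusted p = 0.956). The sign in L-428 rests on replicate 3 of the L-428 tGFP arrays, without which the change was -0.057. RASGRP3 was 9.23-fold higher in L-428 among the arrays with EBF1 (limma, adjusted p = 2.94e-16), the smallest gap of the 8 genes.

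RASGRP1, the relative of RASGRP3 best known from T cells, was high in both lines and leaned the other way, with an average log2 signal of 10.90 ± 0.0453 in L-428 tGFP/EBF1 and 11.48 ± 0.104 in L-1236 tGFP/EBF1 arrays. That difference was -0.57 (limma, adjusted p = 2.84e-06). Of 25 measured genes besides RASGRP3 on the list of Ras exchange factors, Ras proteins and diacylglycerol kinases, none passed with EBF1 in L-428 (4.34% of all rows did). In L-1236, 2 of them rose (3.69% of all rows rose). These were DGKH, a diacylglycerol kinase (0.30, limma adjusted p = 0.0133), and RASA2, which switches Ras off (0.25, adjusted p = 0.0454), and leaving out any 1 of 2 arrays for DGKH or of 9 for RASA2 lost the call. The largest line differences were RASAL3 (-1.38) and RAP1B (1.205), neither near the 3.21 of RASGRP3.

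LRRN3 was high in L-428. Across single arrays the log2 signal was 12.02, 11.80 and 11.81 in L-428 tGFP/EBF1 arrays, against 12.11, 12.22 and 11.96 in L-428 tGFP arrays. The highest EBF1 array overlapped the lowest control array. The change in L-428 was -0.22 (SE 0.0947, 95% interval -0.42 to -0.019), which did not pass after adjustment over all rows (limma, adjusted p = 0.277). In L-1236 the log2 signal was 6.13, 6.33 and 6.28 in tGFP/EBF1 arrays, against 6.46, 6.11 and 6.10 in tGFP arrays, with a change of 0.024 (95% interval -0.17 to 0.22, adjusted p = 0.929). The effects differed by -0.24 (limma, adjusted p = 0.404). Among arrays with EBF1, LRRN3 was 49.6-fold higher in L-428 (limma, adjusted p = 9.61e-19). Of 18 other measured leucine-rich repeat neuronal membrane proteins, 0 passed with EBF1 in either line (4.34% of all rows in L-428, 9.64% in L-1236). One of them, FLRT3, was more than 2-fold apart between the lines (log2 difference 1.56, limma adjusted p = 5.22e-11), on the same side as LRRN3. The paralogues LRRN1 and LRRN2 differed by -0.15 and -0.12 (limma, adjusted p = 0.0548 and 0.291).

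SLC16A4 was high in L-1236 and rose a little with EBF1 there. Its log2 signal was 12.14, 12.33 and 12.22 in L-1236 tGFP/EBF1 arrays, against 12.02, 11.98 and 11.98 in L-1236 tGFP arrays, with no overlap. SLC16A4 rose by 0.24 (SE 0.0602, 95% interval 0.11 to 0.37), or 1.18-fold (limma, adjusted p = 0.0137), which is 4.39% of the control gap. In L-428 the log2 signal was 6.43, 6.45 and 6.47 in tGFP/EBF1 arrays, against 6.48, 6.58 and 6.47 in tGFP arrays. The EBF1 values lay just below the control values, without overlap before rounding, but the change of -0.063 did not pass (limma, adjusted p = 0.798). It was 1 of the 9 rows without overlap in L-428, where 18.3% of all rows had none, and in L-1236 5 of the 9 rows had none, where 26.7% of all rows had none. The effects differed by -0.30, L-428 minus L-1236 (SE 0.0851, 95% interval -0.48 to -0.13, limma adjusted p = 0.0455).

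Both SLC16A4 calls were fragile. The rise in L-1236 did not pass without replicate 2 of L-1236 tGFP (0.23, limma adjusted p = 0.0621), replicate 3 of L-1236 tGFP (0.23, adjusted p = 0.0576) or replicate 2 of L-1236 tGFP/EBF1 (0.19, adjusted p = 0.0574). The difference of effects was lost on leaving out any 1 of 10 of the 12 arrays (-0.35 to -0.26, limma adjusted p = 0.0205 to 0.116 over all 12). SLC16A4 remained high in L-1236 with EBF1, where it was 55.1-fold higher in L-1236 (limma, adjusted p = 1.6e-21). Of 10 other measured SLC16 family members and chaperones, none passed with EBF1 in L-428 (4.34% of all rows did) and 3 rose in L-1236 (3.69% of all rows rose). They were SLC16A10, an aromatic amino acid transporter (0.56, limma adjusted p = 8.9e-05), NPTN (0.45, adjusted p = 0.000168) and BSG (0.29, adjusted p = 0.0321), the last 2 of which are membrane chaperones of the family. The BSG call was lost on leaving out any 1 of 6 arrays. EMB, a further chaperone, was higher in L-428 (log2 difference 2.28, limma adjusted p = 3.26e-12), opposite to SLC16A4.

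SULF1 was high in L-1236 and passed no test of EBF1. The log2 signal of SULF1 was 12.07, 12.32 and 12.09 in L-1236 tGFP/EBF1 arrays, against 12.02, 11.95 and 12.02 in L-1236 tGFP arrays. All 3 EBF1 arrays lay above the control arrays, but the change of 0.16 (SE 0.0746, 95% interval 0.0025 to 0.32) did not pass after adjustment (limma, adjusted p = 0.23). In L-428 the log2 signal was 6.41, 6.25 and 6.42 in tGFP/EBF1 arrays, against 6.43, 6.25 and 6.37 in tGFP arrays, a change of 0.012 (95% interval -0.15 to 0.17, adjusted p = 0.985). The effects differed by -0.15 (limma, adjusted p = 0.558). Set line against line with EBF1, SULF1 was 55.6-fold higher in L-1236 (limma, adjusted p = 3.65e-20).

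SULF2, the other extracellular heparan sulfatase, rose in both lines, by 0.32 in L-428 (limma, adjusted p = 0.00236) and by 0.45 in L-1236 (adjusted p = 2.62e-05). Its line difference in the EBF1 arrays was -0.64 (adjusted p = 1.25e-08). Of 31 measured heparan sulfate genes besides SULF1, 2 rose and 0 fell in L-428 (4.34% of all rows passed). In L-1236, 3 rose and 2 fell (9.64% of all rows passed). EXTL2, a glycosyltransferase of heparan sulfate synthesis, rose in L-428 by 0.48 (limma, adjusted p = 0.000567) and by 0.29 in L-1236 (adjusted p = 0.0151), where any 1 of 4 arrays left out lost the call. The core protein GPC6 rose by 0.26 in L-1236 (adjusted p = 0.00803), a call lost without replicate 2 of L-1236 tGFP, and the core protein SDC3 fell by 0.36 there (limma, adjusted p = 0.00146). The largest line differences in the EBF1 arrays were NDST4 (-1.58) and GPC5 (-1.27), higher in L-1236, and EXT1 (1.40), higher in L-428.

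AOAH was high in L-1236 and passed no test of EBF1. The arrays gave AOAH a log2 signal of 11.04, 11.41 and 11.20 in L-1236 tGFP/EBF1 arrays, against 11.04, 11.06 and 11.11 in L-1236 tGFP arrays, and these overlapped. The change was 0.15 (95% interval -0.042 to 0.33, limma adjusted p = 0.399). In L-428 the log2 signal was 5.996, 6.23 and 6.10 in tGFP/EBF1 arrays, against 5.95, 6.20 and 6.20 in tGFP arrays, a change of -0.0085 (95% interval -0.20 to 0.18, adjusted p = 0.992). The effects differed by -0.15 (limma, adjusted p = 0.625). AOAH with EBF1 was 34.5-fold higher in L-1236 (limma, adjusted p = 1.25e-18).

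The genes that sense lipopolysaccharide showed no line gap of the size of that of AOAH. The receptor TLR4 and its partner CD14 were low in every group, with mean log2 signals of 6.03 to 6.11 for TLR4 and 6.73 to 6.90 for CD14. None of the 14 measured genes besides AOAH stood 2-fold apart between the lines in the EBF1 arrays. By the adjusted p alone, 6 of them were higher in L-1236 like AOAH and 1 was higher in L-428, where 50.5% of all rows passed. The largest difference was that of TIRAP, an adaptor of the receptor (-0.79, limma adjusted p = 3.62e-09). With EBF1, none passed in L-428 (4.34% of all rows did), and 1 rose and 2 fell in L-1236 (9.64% of all rows passed). CASP4, an intracellular lipopolysaccharide sensor, rose by 0.53 (limma, adjusted p = 7.99e-06). TRAF6, a ubiquitin ligase of the pathway, fell by 0.38 (limma, adjusted p = 0.00313), and IRAK1, the kinase above it, fell by 0.22 (adjusted p = 0.0433), a call lost on leaving out any 1 of 7 arrays.

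**Figure D3:**
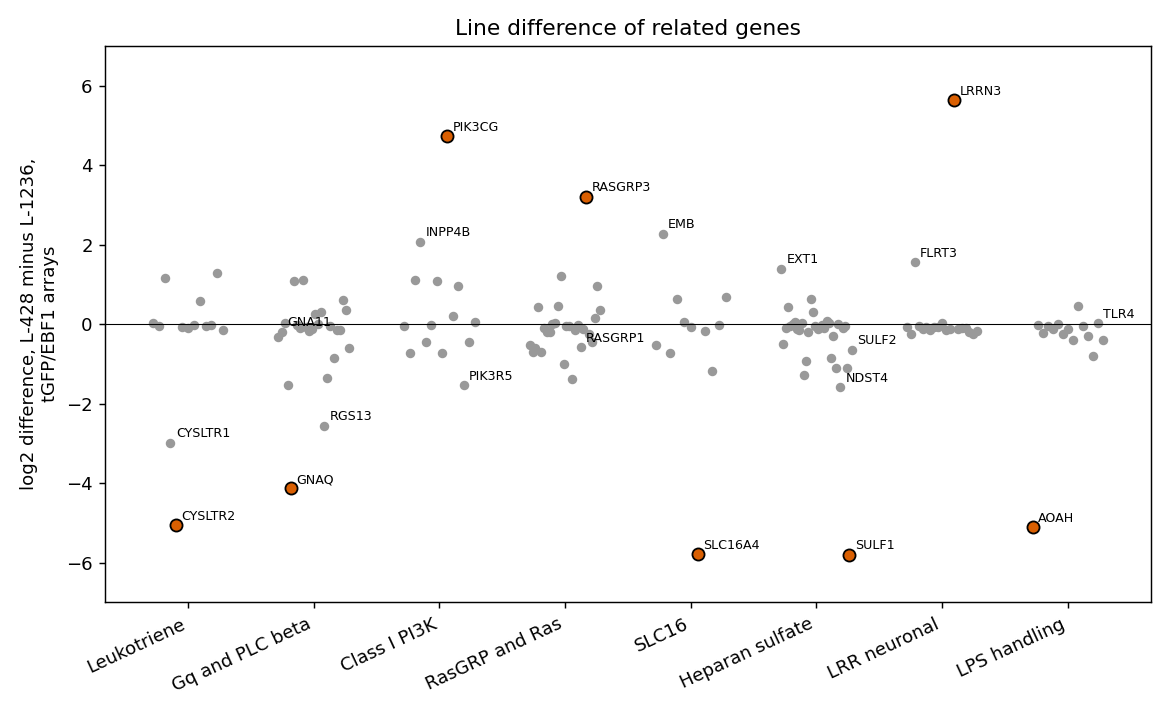
Log2 difference between L-428 and L-1236 in the tGFP/EBF1 arrays for the measured genes of 8 pathway lists, with a dot per gene and the 8 chosen genes in orange. Each chosen gene lies farther from 0 than every other gene of its list, which its choice for a 9-fold line gap largely fixed. CYSLTR1 (-2.98) and RGS13 (-2.56) are the nearest to the chosen genes on the L-1236 side.

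The rows with the most similar profiles over the 12 arrays were found by the root mean square distance between profiles centred on their own means. Only rows with 1 symbol and outside the 8 genes were searched, so no member could be named as nearest to another. All the rows named share the line gap, and the 12 arrays come from the same lines, so the distances are a description. For AOAH, CYSLTR2, SLC16A4 and SULF1 the nearest of the rows searched was FCER1A, a chain of the high-affinity IgE receptor, at 0.221, 0.335, 0.415 and 0.442 (n = 12 arrays). FCER1A averaged a log2 signal of 6.25 in L-428 tGFP/EBF1 and 6.25 in L-428 tGFP arrays, against 11.00 in L-1236 tGFP/EBF1 and 11.42 in L-1236 tGFP arrays. The second nearest to CYSLTR2 was PLAT at 0.413, and to AOAH, SLC16A4 and SULF1 it was GALM, at 0.419, 0.706 and 0.742. For the first GNAQ row the nearest were TOM1L1 (0.156) and FCGR2A (0.160), and for the second GALM (0.114) and PLAT (0.179). For the L-428 genes, LRRN3 was nearest to 2 small nucleolar RNAs, SNORD116-15 (0.164) and SNORD116-14 (0.188). PIK3CG was nearest to SAMSN1 (0.152) and FAM9C (0.166), and RASGRP3 to VAMP8 (0.0768) and HERC6 (0.0877).

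The 8 genes lie on 6 chromosomes, with AOAH, LRRN3 and PIK3CG on chromosome 7. Of the 48 nearest protein-coding genes, 3 on each side of each member in RefSeq's gene order, 45 were measured. In the EBF1 arrays, 5 of the 45 passed the adjusted p and stood 2-fold apart between the lines, or 11.1%, beside 7.65% of all rows, and 4 of the 5 were on the member's side. The median absolute log2 difference of the neighbours was 0.467, beside 0.177 over all rows. The sets are not alike in these comparisons. The neighbours are protein-coding genes, each at its brightest row, while all rows include dim and non-coding ones. The largest of these differences were those of CPA6 beside SULF1 (-2.03, limma adjusted p = 8.04e-11) and EEPD1 beside AOAH (-1.93, adjusted p = 8.67e-15). ELMO1, the next gene to AOAH on its other side, was higher in L-428 (1.30, limma adjusted p = 1.48e-10), opposite to AOAH. LTBP1 beside RASGRP3 (1.15) and SYPL1 near PIK3CG (1.00) were higher in L-428 like those members. All 12 neighbours of LRRN3 and PIK3CG were higher in L-428, by 0.070 to 1.00 on the log2 scale, and 11 of the 12 passed the adjusted p, the exception being HBP1 (limma, adjusted p = 0.372). In either direction, 50.5% of all rows passed, and 69.2% of the rows above the array median in at least 1 group. The share passing higher in L-428 alone was not counted, and the median log2 difference over all rows was -0.031. PIK3CG and LRRN3 lie near each other on chromosome 7, at 106865229 and 111090877 by their promoter windows, with AOAH far off at 36724495. Their 12 neighbours are therefore not to be read as separate regions. A regional cause was not tested. No measured neighbour of LRRN3, SLC16A4, CYSLTR2 or GNAQ stood 2-fold apart.

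**Figure D4:**
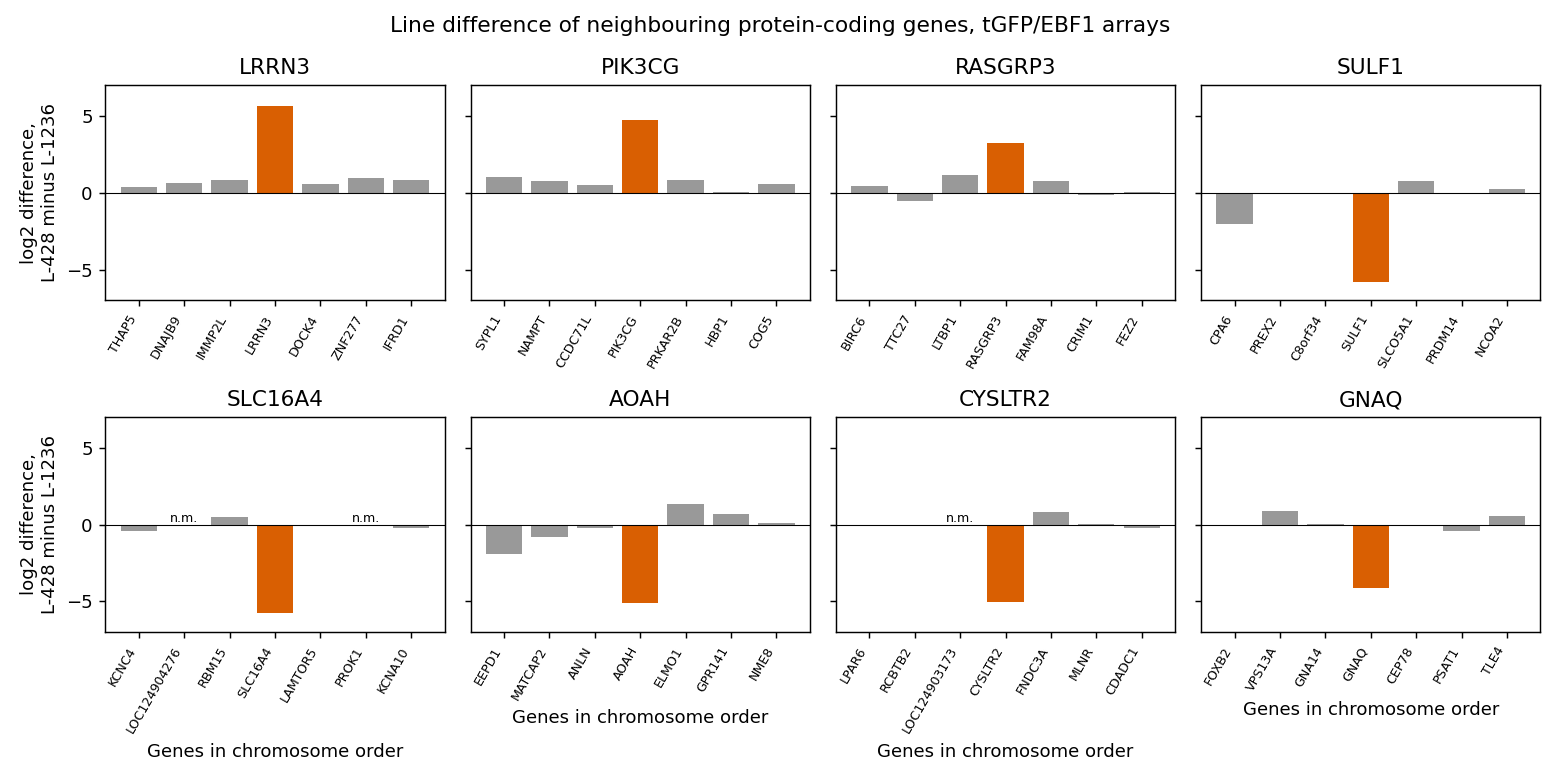
Log2 difference between L-428 and L-1236 in the tGFP/EBF1 arrays for each chosen gene (orange) and the 3 nearest protein-coding genes on each side (grey), in chromosome order and not to scale, with the second GNAQ row drawn and n.m. for genes with no row. The member's bar is the longest in every panel, which the choice of members by their line gap largely fixed. LRRN3 and PIK3CG lie near each other on chromosome 7, and all 12 of their neighbours point the same way as those genes.

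The 9-fold limit cut a continuous range. The 3 rows just inside it were RASGRP3 at 9.39-fold, ATXN7L1 at 9.48-fold and PXDC1 at 9.50-fold between the control groups. The 3 just outside were ATP2B4 at 8.92-fold, a second row of ATXN7L1 at 8.89-fold and SLAMF1 at 8.82-fold. Among the 81 rows, LRRN3 ranked 2, SULF1 4, SLC16A4 6, PIK3CG 9, AOAH 10, CYSLTR2 13, GNAQ 14 and 31 on its rows, and RASGRP3 81.

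Of 10 Hodgkin markers, the median of the mean log2 signals was 9.61 in L-428 tGFP/EBF1, 9.77 in L-428 tGFP, 10.13 in L-1236 tGFP/EBF1 and 9.31 in L-1236 tGFP arrays. Not all stood above the range of the tissue-restricted genes, since TRAF1 (7.31 and 7.43) and IL13 (6.87 and 7.26) lay within it in L-1236 tGFP/EBF1 and L-1236 tGFP arrays, IL13 did in L-428 tGFP/EBF1 arrays (7.52), and CCL22 in L-428 tGFP arrays (7.07). CD30 (TNFRSF8), the surface marker of Reed-Sternberg cells, had mean log2 signals of 10.42 and 10.38 in L-428 tGFP/EBF1 and L-428 tGFP arrays, and 10.08 and 9.57 in L-1236 tGFP/EBF1 and L-1236 tGFP arrays. Of 10 T-cell markers, 9 lay between 5.99 and 7.16 in every group, and CD3E was at most 6.54. The exception was CD4, at 9.10 in L-1236 tGFP/EBF1 and 8.62 in L-1236 tGFP, against 6.83 and 6.86 in the matching L-428 groups. The medians of 9 myeloid markers were 6.65 to 6.80, and the highest of these markers read 7.83 to 7.92. Of 9 measured B-cell markers, the medians were 6.995 in L-428 tGFP/EBF1, 6.96 in L-428 tGFP, 7.66 in L-1236 tGFP/EBF1 and 7.03 in L-1236 tGFP arrays, and the highest in every group was CD37 (9.40 to 9.64). With EBF1, 1 of the 9 rose and 0 fell in L-428 (4.34% of all rows passed), while 2 rose and 1 fell in L-1236 (9.64% of all rows passed). CD79A, a B-cell receptor subunit, rose in both lines, by 0.23 in L-428 (limma, adjusted p = 0.0346, though any 1 of 6 arrays left out ended that call) and by 1.18 in L-1236 (adjusted p = 2.75e-10), and averaged 7.19 and 6.96 in L-428 tGFP/EBF1 and tGFP arrays, and 8.19 and 7.001 in L-1236 tGFP/EBF1 and tGFP arrays. CD22, a B-cell adhesion receptor, fell by 0.40 in L-1236 (limma, adjusted p = 0.00119), with means of 8.51 in tGFP/EBF1 and 8.91 in tGFP arrays, and was low in L-428 (6.39 and 6.38). PAX5, a B-cell transcription factor, averaged 7.88 and 7.67 in L-428 tGFP/EBF1 and tGFP arrays, and 9.37 and 9.51 in L-1236 tGFP/EBF1 and tGFP arrays. The part of any of these marker changes in the members' values was not tested. In bulk RNA fewer cells with a transcript and less of it per cell cannot be told apart.

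Array medians lay between 7.19 and 7.31 and arrays of a group correlated at 0.992 to 0.997 over all 32321 rows, against 0.944 to 0.953 between lines. Replicate 3 of L-428 tGFP stood apart, with an interquartile range of 2.28 against 2.47 and 2.49 in the others of its group, and it was the lowest of its group for LRRN3, PIK3CG and RASGRP3. Replicate 1 of L-1236 tGFP/EBF1 had an interquartile range of 2.17, against 2.31 and 2.26, and was the lowest of its group for SULF1, SLC16A4, AOAH, CYSLTR2 and the first GNAQ row. The part of these arrays in the changes is given by the values without them above and was not tested further.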

How the data were processed

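RNA of sorted tGFP-positive cells was amplified and hybridised to 12 Affymetrix whole-transcript arrays, 3 per group, per the labels' protocols. The deposited table holds 1 log2 value per row and array. How the authors summarised and normalised these values, and on which genome build, is not stated in those labels, and the limits of a 5% false discovery rate and 2-fold change come from the series' design text. Genes were named through the platform annotation, in which 19158 rows had 1 symbol, 1388 several and 11775 none.

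The log2 values were fitted as deposited with limma 3.58.1 in R 4.3.3 (4 group means, no block, 8 residual degrees of freedom), and p-values were adjusted by Benjamini-Hochberg over the 20546 rows with a symbol. Words of change are used of rows at an adjusted p of 0.05 or less. The number of arrays limits the precision. In arrays simulated for the L-428 comparison (20546 rows), 20346 rows were left unchanged. The test called 74% of 50 rows given a 1.25-fold change and 100% of 50 rows given a 1.5-fold one. These rates describe the simulated arrays and are not the power of the real ones. In the real arrays, 892 rows passed in L-428, and 463 to 1307 with 1 array left out.

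The members, the pathway and marker lists and the tests were chosen with earlier results of these data known. Named from each list were up to 4 genes with the largest change that passed in each EBF1 contrast and up to 4 with the largest line difference, beside relatives and partners of the members, the 2 nearest profiles and neighbouring genes past 2-fold. PIK3CB, PIK3CD, GNA11, GNA14, RASGRP1, LRRN1, LRRN2, TLR4, CD14, CD4, CD22, CD37, PAX5, TRAF1, IL13, CCL22, RGS2, IFRD1, ALOX5, LTA4H, MGST2 and GGT5 were named as such relatives or list members after their values were seen. A gene with several rows was represented in a list by the brightest. Figures were drawn with matplotlib 3.10.9 in Python 3.11.15.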

Additional observations from a re-analysis of the deposited data

Results flagged for a closer look

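The EBF1 effect differed between the lines for 26 of 267 rows, by the interaction term of the fit over all arrays (limma, Benjamini-Hochberg over 20546 rows), where 5.16% of all rows passed. The 267 are the 9 member rows, the genes of the pathway, marker and tissue-restricted lists, the measured chromosomal neighbours and the genes with the nearest profiles. Each value is the log2 effect in L-428 minus that in L-1236. Among the 8 line-restricted genes it passed for SLC16A4 alone (-0.30, adjusted p = 0.0455).

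In the leukotriene pathway the effects differed for CYSLTR1 (-0.59, adjusted p = 0.0349), which rose in L-1236, and ALOX5AP (0.37, adjusted p = 0.034), which rose in L-428. Of the regulators of G protein signalling, RGS16 differed by 0.90 (adjusted p = 1.13e-05), with a rise in L-428 and a fall in L-1236, RGS1 by 0.50 (adjusted p = 0.0199) and RGS2 by 0.44 (adjusted p = 0.0432). Among kinase and phosphatase genes the differences were 0.55 for PIK3R6 (adjusted p = 0.00155), -0.46 for AKT2 (adjusted p = 0.0222), -0.36 for INPP5D (adjusted p = 0.044) and -0.36 for PREX1 (adjusted p = 0.0301). Among heparan sulfate genes NDST4 differed by -0.40 (adjusted p = 0.0412) and GPC6 by -0.34 (adjusted p = 0.024). TRAF6 and CASP4 differed by 0.48 and -0.47 (adjusted p = 0.0136 and 0.00237).

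Of the markers, CD79A had the largest of the 26 differences (-0.95, adjusted p = 1.79e-06), and the others were CCL22 (-0.50, adjusted p = 0.00324), TNFRSF8 (-0.47, adjusted p = 0.00768), CD4 (-0.51, adjusted p = 0.0265), CD22 (0.42, adjusted p = 0.0232) and PAX5 (0.34, adjusted p = 0.0246). Of the neighbours, CPA6 differed by -0.63 (adjusted p = 0.0486) and IFRD1, near LRRN3, by 0.36 (adjusted p = 0.0374). Of the genes with the nearest profiles, FAM9C differed by -0.67 (adjusted p = 0.000124), FCGR2A by 0.64 (adjusted p = 0.0114), TOM1L1 by 0.55 (adjusted p = 0.00702) and FCER1A by 0.42 (adjusted p = 0.039).

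Leaving out 1 array lost 16 of the 26 calls. The number of the 12 arrays whose removal did so was 10 for SLC16A4 and INPP5D, 9 for CYSLTR1 and CPA6, 8 for ALOX5AP, RGS2, AKT2, NDST4, CD4, IFRD1 and FCER1A, 7 for PREX1, 5 for CD22 and PAX5, 4 for GPC6 and 2 for RGS1. Median centring lost 16 calls, these same genes apart from CD22 and PAX5, with TRAF6 and TNFRSF8 added. Testing every row lost 17, the 16 lost on leaving out an array and FCGR2A. The replicate block lost 7 (SLC16A4, ALOX5AP, RGS2, INPP5D, NDST4, IFRD1 and CPA6), trend and robust variance 3 (SLC16A4, CYSLTR1 and CPA6), quantile normalization 1 (CPA6) and leaving out both narrow arrays 1 (ALOX5AP). The array weights lost 0, and so did the filter on dim rows, which left CASP4 out. The calls of RGS16, PIK3R6, CASP4, CD79A, CCL22, FAM9C and TOM1L1 passed in all the settings run that tested them.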

How the results depend on the processing

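Over 21 settings, 2256 changes of single rows kept their direction and their side of the threshold, 263 no longer passed, 16 newly passed and 29 changed sign. All 9 members, which were chosen for their line gap, passed between the lines in the EBF1 arrays in every setting run. The rise of CYSLTR2 and the fall of the first GNAQ row in L-1236 passed in all of them too, with log2 changes of 0.41 to 0.57 and -0.68 to -0.40 when 1 array was left out. The calls of SLC16A4, PIK3CG and the second GNAQ row were each lost in some settings.

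Rows past the adjusted p in L-428 numbered 892, against 1614 with quantile normalization, 498 with median centring, 2657 with array weights, 1984 with both narrow arrays left out (chosen after seeing the data) and 463 to 1307 with 1 array left out. In L-1236 there were 1981, against 3063 with quantile normalization, 8750 with array weights and 1294 to 2898 with 1 array left out. For the difference of effects there were 1061, against 1865 with quantile normalization, 599 with median centring, 676 with every row tested, 4538 with array weights, 1897 with both narrow arrays left out and 672 to 1457 with 1 array left out. The array weights gave 36.7 to replicate 3 of L-1236 tGFP/EBF1 and 0.131 to replicate 3 of L-428 tGFP, so 1 array dominates that fit.

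Member rows past the adjusted p in L-1236 fell to 3 of 9 with median centring or with every row tested, where PIK3CG (adjusted p = 0.0993 and 0.0779) and the second GNAQ row did not pass. They numbered 4 of 9 with only the arrays of the contrast, where the second GNAQ row did not pass, 7 of 9 with array weights, where RASGRP3 (0.12, limma adjusted p = 0.0188) and AOAH (0.13, adjusted p = 0.0352) newly passed, and 2 to 5 with 1 array left out. In L-428, 1 row, LRRN3 (-0.28, limma adjusted p = 0.0214), passed with array weights. For the difference of effects, 0 passed with median centring, every row tested, trend and robust variance or the replicate block, 2 with a filter on dim rows, 3 with both narrow arrays left out, 6 with array weights and 0 to 2 with 1 array left out. List genes past the adjusted p numbered 8 in L-428, against 4 with median centring, 22 with array weights, 16 with both narrow arrays left out and 4 to 12 with 1 array left out. In L-1236 they numbered 23, against 15 with median centring and 68 with array weights.

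Changes near 0 in L-428 changed sign. PIK3CG was 0.016 with quantile normalization and 0.013 with median centring. AOAH was 0.0040 and 0.0060 in those settings, 0.055 with array weights and 0.033 with both narrow arrays left out. RASGRP3 was -0.030 with array weights and -0.057 with both narrow arrays left out, and TNFRSF8 was -0.027 and -0.047. With 1 array left out, the change in L-428 ranged over -0.094 to 0.047 for AOAH, -0.086 to 0.11 for the first GNAQ row, -0.14 to 0.070 for PIK3CG, -0.057 to 0.13 for RASGRP3, -0.040 to 0.066 for SULF1 and -0.047 to 0.086 for TNFRSF8. LRRN3 in L-1236 ranged over -0.036 to 0.14, and the difference of effects of RASGRP3 over -0.15 to 0.041. The cause of these changes was not tested. The fit to the arrays of a single contrast has no value for the difference of effects.

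Same-numbered arrays of a line had deviations correlated at -0.21 to 0.28, and differently numbered ones at -0.35 to 0.31. No pairing by replicate number shows in these values, but deviations from a mean of 3 arrays cannot exclude one. With the replicate block 731 rows passed in L-428, 1774 in L-1236 and 885 for the difference of effects, and of the members' calls only the difference of effects of SLC16A4 was lost (limma, adjusted p = 0.0683). The rise of CD79A in L-428 was lost too (0.23, limma adjusted p = 0.0664).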
